A study of Drosophila melanogaster with 3 samples.

Results

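CG-numbered genes are Drosophila genes that carry only the number of the genome annotation and no given name. In the likely direction, 96 of them were higher in the midgut of EcR mutant larvae than in a pooled wild-type midgut reference on every array. They were chosen by their own values: a gene with a single CG symbol was taken when its centred log2 ratio was at least 1, a doubling, on each of the 3 arrays. The genes CG14204, CG14205, CG14219 and CG8093 also reached these values and were left out by the rule. The choice was made from 4051 CG-numbered genes among 13027 features with a value on all arrays, of which 9757 were genes with 1 symbol and 3270 were probes with no symbol or several.

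The mutant midguts carried the alleles EcRM554fs and EcRV559fs over each other, which removes the function of all EcR isoforms, and the larvae were brought to stage 2a, the point late in the third instar where they arrest, with the help of hs-EcR-B230.1, a transgene that supplies EcR after heat shock. The reference was a pool of midgut RNA of the wild-type strain Canton S from various stages, the same pool on all arrays. The 3 mutant samples are described as independent and are called replicates 3, 4 and 6 after their titles. Each array gave 1 log2 ratio per probe, with the mutant in the 635 nm channel and the reference in the 532 nm channel, and no dye swap was made. Ratios are read as mutant over reference, from the order of the channels in the labels. The table itself names no numerator, so this is the likely direction only, and with the other one every sign below would turn. The reference was of mixed stages, did not carry the transgene and was in the same channel on all arrays. Genotype, stage, heat shock treatment, strain and dye therefore cannot be told apart in any ratio.

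EcR encodes the nuclear receptor for the steroid hormone ecdysone, whose pulses end each larval instar and start metamorphosis. The larval midgut digests and absorbs food while the larva feeds, secretes proteases, lipases and glycosidases, and is lined by the peritrophic matrix, a sheet of chitin and chitin-binding proteins. At metamorphosis the larval midgut is replaced, and the hormone triggers its death. Many genes of the feeding gut lie in tandem groups of related genes.

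Replicate 3 gave 18991 measured probes, replicate 4 gave 14097 and replicate 6 gave 14069. The number of arrays limits the precision, and fewer cells of a type and less RNA per cell cannot be told apart in whole tissue. The EcR probe itself had log2 ratios of 1.72, 0.57 and 2.19 on replicates 3, 4 and 6, and whether it also reads the transgene or the mutant transcripts is not given in the sources used here. Ratios carry no level of expression, so the tissue label could not be checked against markers expressed in both channels. Markers of other cell types that a dissected midgut could hold had means from -1.14 to 0.73. The members lie at 1 or more by the rule, so their ratios are not set against those of these markers. Over all features 13.4% were higher and 23.6% lower by limma. Of 5 tested genes listed for fat body 0 were higher and 3 lower (limma, means from -1.01 to 0.09). Of 8 hemocyte genes 1 was higher (12.5%) and 3 lower (-1.14 to 0.23). Of 7 muscle genes 2 were higher (28.6%) and 1 lower (-0.30 to 0.58). Of 4 genes listed for the Malpighian tubule 0 were higher and 3 lower (-0.91 to 0.06). Of 4 salivary glue genes 2 were higher (50%) and 0 lower (0.14 to 0.26). Of 6 enteroendocrine genes 2 were higher (33.3%) and 0 lower (0.00081 to 0.73). The part of such cells in the members' ratios was not tested. Of 46 digestive enzyme genes with a given name, 37 were higher (80.4%) and 3 lower, against the same 13.4% and 23.6%. Their means ran from -3.00 to 4.18, with a median of 1.24. This list, like the others, was drawn up with earlier results of these data known.

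The members covered a wide span of ratios, from a little over a doubling to about 12 times the reference. Their mean log2 ratios ran from 1.12 to 3.58 with a median of 1.82, and 31 of them had a mean of at least 2. Of the 100 features with the highest means in the whole series, 47 were members, 4 were the CG-numbered genes left out by the rule, 37 were genes with a given name, 11 were unnamed probes and 1 was another CG-numbered gene. The values that chose the members fix these figures, so they are a description. Of all tested CG-numbered genes 2.47% reached the threshold on each array, and of given-name genes 1.49%. All 96 members also passed the limma test as higher, which 13.4% of all features did; since the rule used the same contrast, nothing is read from that count.

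**Figure D1:**
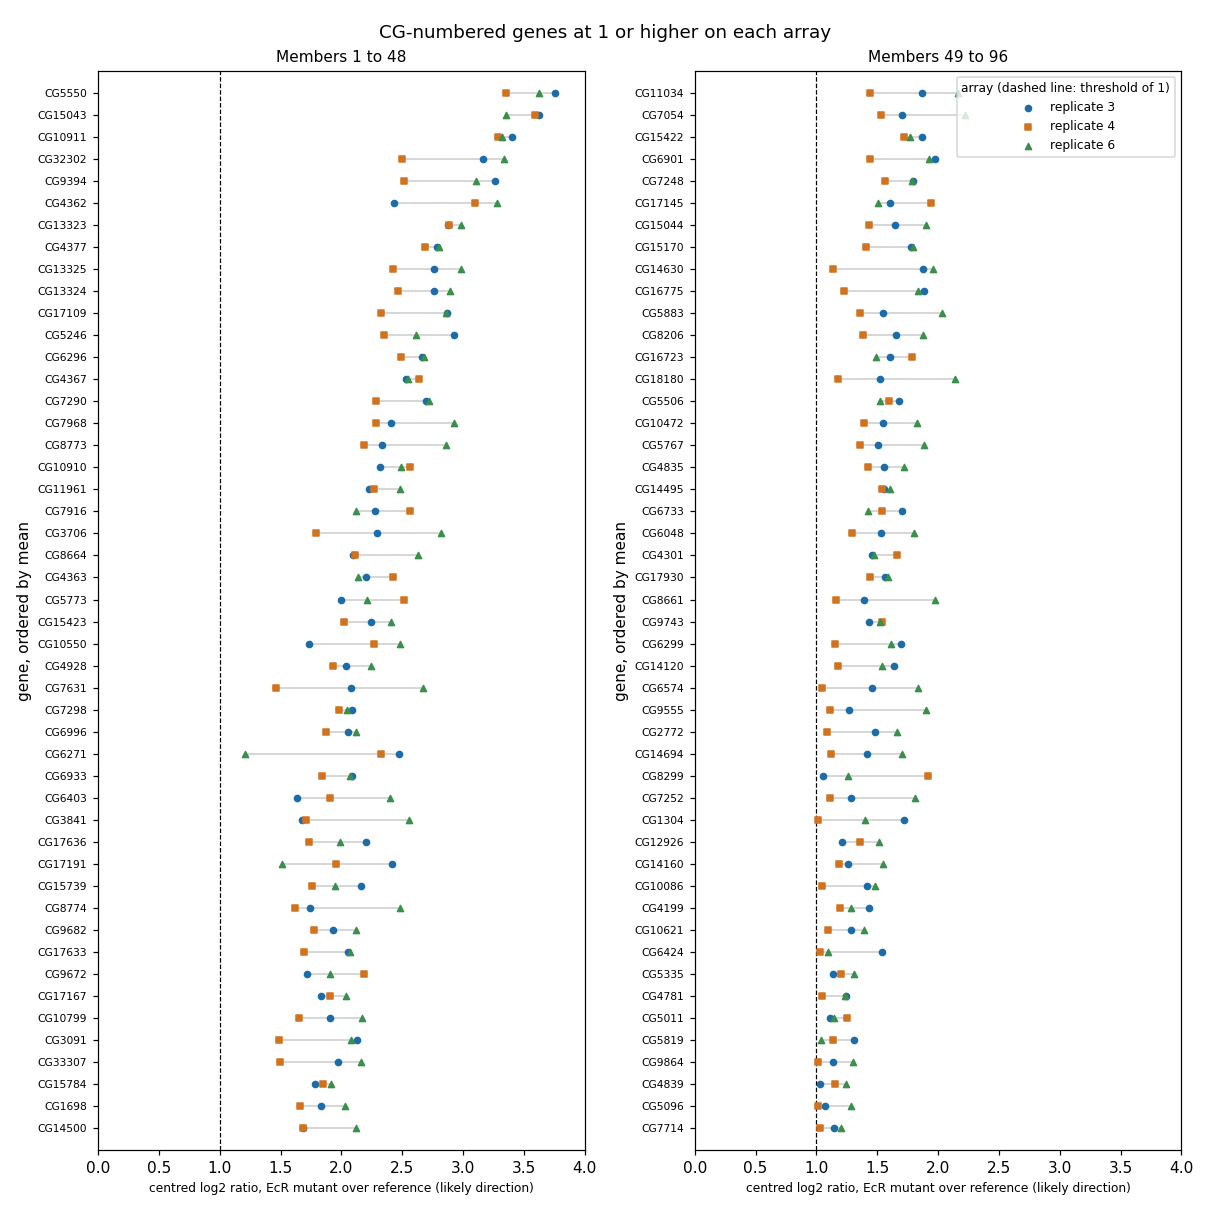
Centred log2 ratio (x axis) of each of the 96 genes (y axis, ordered by mean, in 2 columns), with a point for each array and a grey line from the lowest to the highest. The dashed line marks the threshold of 1; replicate 4 was the lowest array for 66 of the 96 genes.

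The highest member was CG5550, which belongs to a family of fibrinogen-related proteins, with log2 ratios of 3.76, 3.36 and 3.63 on replicates 3, 4 and 6. CG15043 followed with 3.62, 3.59 and 3.36, and CG10911 with 3.40, 3.29 and 3.32. CG5550 lay above CG15043 on replicates 3 and 6 and below it on replicate 4, so the arrays do not order this pair. CG15043 lay above CG10911 on every array, though only slightly on replicate 6. All 3 genes stood near or above a 10-fold ratio on every array, with folds of 10.1 to 12 from their means.

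Below them, CG32302, which encodes a protein with chitin-binding domains, had 3.17, 2.49 and 3.34. CG9394, of the glycerophosphodiester phosphodiesterase family, which releases glycerol phosphate from phospholipid breakdown products, had 3.26, 2.52 and 3.11. Both had their lowest value on replicate 4, by more than 0.5 on the log2 scale. CG4362 had 2.43, 3.10 and 3.28, with replicate 3 lowest, and CG13323 had 2.88, 2.89 and 2.99, with the 3 arrays close together. The next members, down to the twentieth, were CG4377, CG13325, CG13324, CG17109, CG5246, CG6296, CG4367, CG7290, CG7968, CG8773, CG10910, CG11961 and CG7916, with means from 2.76 to 2.32.

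At the other end, the members whose lowest array lay closest to the threshold were CG9864, CG1304 and CG5096, at 1.01, 1.01 and 1.02, each on replicate 4. Just outside it were CG14247, CG16898 and CG9512, at 0.99, 0.96 and 0.96, also on replicate 4. CG16898 had a mean of 2.00, higher than most members, with 2.23 and 2.80 on replicates 3 and 6. In all, 26 CG-numbered genes reached 1 on 2 of the 3 arrays, and for 23 of these replicate 4 was the one below.

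The arrays differed in a common direction over the members. The median of the members was 1.78, 1.66 and 1.97 on replicates 3, 4 and 6. Replicate 6 was the highest array for 58 members, replicate 3 for 26 and replicate 4 for 12, and replicate 4 exceeded replicate 6 for 18 of 96. Over all features the SD of the ratios was 0.51, 0.45 and 0.57 in the same sequence, with the arrays in the same order of size. EcR was also lowest on replicate 4, and neither its part nor that of the spread of each array was tested. The median SD of a member between arrays was 0.23, against 0.10 over all features. The median ratio over all features was 0.01, and features with ratios as large as those of members were not compared.

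Members differed widely in how well the arrays agreed. The closest were CG14495, with 1.55, 1.54 and 1.6, and CG4367, with 2.53, 2.63 and 2.55. The widest was CG6271, with 2.48, 2.32 and 1.21, a range of 1.27, where replicate 6 was the low one. CG7631 had 2.08, 1.46 and 2.67 and CG3706 had 2.29, 1.79 and 2.82, with replicate 4 lowest in both. For 7 members 2 probes were measured. The probes of CG9743, a member of the stearoyl-CoA desaturase family, averaged 1.72 and 1.27, and those of CG13325 averaged 2.93 and 2.51. For the other 5 the probe means lay within 0.21 of each other, and 1 probe of CG9864 was at 0.97 on replicate 4, below the threshold that the gene met as a mean.

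By family, 33 of the members were placed in 5 groups, by synonyms in the RefSeq gene table or by common knowledge of their protein families, and 63 in none of them. The groups were drawn with the values known, and their ratios are descriptions. Families were not checked against sequence, so the 63 may hold further genes of these families and the group counts may be incomplete. In 10 members the protein carries chitin-binding domains of the kind found in peritrophic matrix proteins. Their means ran from 1.40 for CG7252 to 3.0 for CG32302, with a median of 1.86. The others were CG7290 at 2.57, CG7298 at 2.04, CG6996 at 2.01, CG6933 at 2.00, CG7248 at 1.72, CG17145 at 1.69, CG5883 at 1.64 and CG4835 at 1.57.

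Serine proteases, which include the trypsins and chymotrypsins of the gut, and their homologs made up 7 members, each with an SP or SPH synonym. CG5246 was highest, with 2.92, 2.35 and 2.61, followed by CG9672, listed as a serine protease homolog, with 1.71, 2.19 and 1.91. CG18180, CG10472, CG6048, CG8299 and CG1304 had means from 1.61 to 1.38. CG8299 was highest on replicate 4 (1.05, 1.92 and 1.26), while CG18180 was lowest there (1.52, 1.18 and 2.14), so the proteases did not share 1 order of arrays.

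Peptidases of other families made up 7 members with a median of 2.07. CG17109 and CG6733, of the aminoacylase family, which frees amino acids from their acylated forms, had 2.87, 2.33 and 2.86, and 1.70, 1.54 and 1.43. CG8773 and CG8774, aminopeptidases that trim residues from the start of peptides, had 2.33, 2.19 and 2.86, and 1.75, 1.62 and 2.48. In both aminopeptidases replicate 6 was the highest and replicate 4 the lowest. CG11961, of the same broad class of zinc peptidases, averaged 2.33, CG7631, of the astacin metalloproteases, 2.07, and CG17633, a carboxypeptidase, which trims residues from the end of peptides, 1.94.

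Membrane transporters made up 6 members with a median of 1.49. CG4928, related to UNC-93, averaged 2.07 ± 0.16 (SD, n = 3), and CG1698, a transporter of the neurotransmitter and amino acid transporter family, 1.84 ± 0.18. CG4301, a P-type ATPase, averaged 1.53, CG6574 and CG14694, both of the folate and thiamine carrier family, 1.45 and 1.41, and CG9864, of the family of phosphate and organic anion carriers, 1.15. Outside these groups, CG10550, with the synonym Dro13-1 of the ecdysteroid kinase-like family, had 1.73, 2.27 and 2.48. CG14630, with the synonym gamma-BBH for an enzyme of carnitine synthesis, had 1.87, 1.14 and 1.96. CG12926 and CG3091, of the CRAL-TRIO family of lipid-binding proteins, averaged 1.36 and 1.90. CG5819, CG4781 and CG5096, with leucine-rich repeats, were among the lowest members, with means from 1.17 to 1.12.

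**Figure D2:**
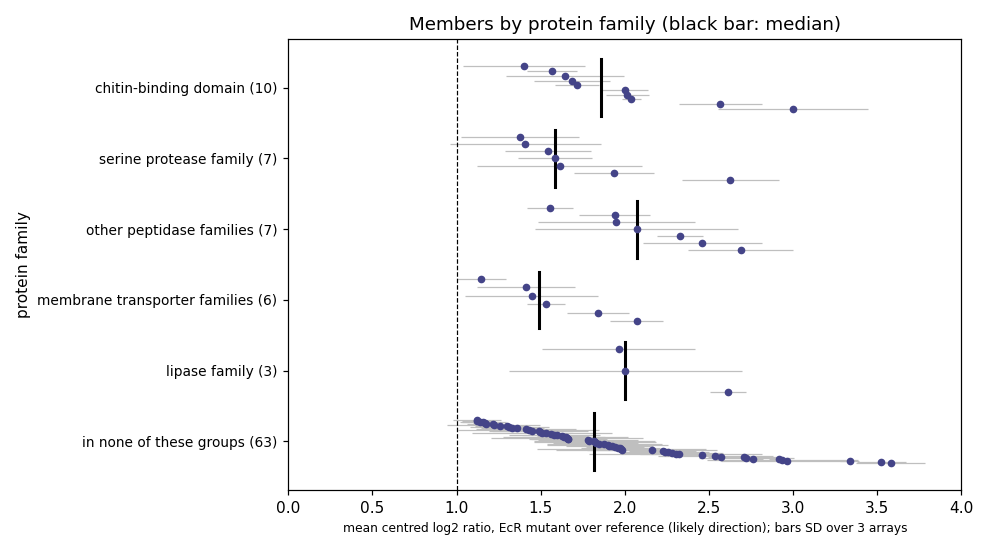
Mean centred log2 ratio (x axis, bars are the SD over 3 arrays) of each member by protein family (y axis, number of members in brackets), with the median of each group as a black bar. The 5 groups overlap, with medians from 1.49 for transporters to 2.07 for the other peptidases.

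Many members lay beside each other on the chromosome. The genome order came from RefSeq (Release 6 plus ISO1 MT), over protein-coding genes. A run was a set of members each at most 3 genes from the next, and 42 of the 96 members (43.8%) fell into 16 runs: 2 of 5 members, 4 of 3 and 10 of 2. Of the 105 CG-numbered genes at -1 or lower on each array, chosen by the mirrored rule, 10 (9.52%) fell into 5 runs. Of the other tested genes 3.01% had a member within 3 genes. These shares were not tested against each other. By arm, 23 members were on 2R, 22 on 3R, 19 on X, 16 on 2L and 16 on 3L. Arm 2R held 24.0% of members and 18.45% of all tested CG-numbered genes, and arm X 19.8% and 17.4%. Of the mirrored genes these arms held 18.1% and 10.5%. The shares of members and of tested CG-numbered genes were 22.9% and 25.2% on 3R, 16.7% and 18.45% on 2L, and 16.7% and 20.3% on 3L. Differences between arms were not tested.

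In 21 of the 26 pairs of successive members in a run, probe numbers differed by 1 or by a step within 2 of 1250. A step of 1250 was the most common one above 1 between successive tested genes. Neighbours in a run were thus often neighbours in the numbering of the array as well. The same share over all successive tested genes was not computed, so the count is not read as particular to the runs. The part of probe placement in the runs was not tested. Probe sequences were not used here, and for related genes in tandem a probe that also binds its neighbour's RNA was not tested either.

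The longest runs were on 2R and 3L. On 2R the order was CG10910 at 2.46, CG5773 at 2.24, CG5770, CG5767 at 1.58, CG34005, CG14495 at 1.56, Muc55B, which encodes a mucin, and CG10911 at 3.34. Muc55B, which could not be a member because it has a name, had 2.48, 2.50 and 2.76 (mean 2.58 ± 0.16, SD, n = 3; limma adjusted p = 3.26e-06). CG5770, with a member on each side, was at 0.44, 0.28 and 0.53 (mean 0.42; limma adjusted p = 0.00323), far below both, and CG34005 had no value. The genes just outside, CG5084 and CG10912, averaged 0.26 and -0.10 and did not pass. CG5084 was called at 0.40 without replicate 3 and at 0.32 on the values as deposited. With the means over all arrays the step at each end of the run was more than 2 on the log2 scale.

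On 3L, 5 members with chitin-binding domains stood in the order CG7298 (2.09, 1.98 and 2.05), CG7290 (2.70, 2.28 and 2.72), CG6996 (2.05, 1.87 and 2.12), CG6933 (2.09, 1.84 and 2.07) and CG17145 (1.61, 1.94 and 1.51). CG7017, between CG6996 and CG6933, went the opposite way, with -2.62, -0.16 and -2.54 on replicates 3, 4 and 6 (mean -1.78 ± 1.40, SD, n = 3; limma adjusted p = 0.018). Without replicate 3 the mean of CG7017 was -1.36 and the call was lost. The flanking gene obst-F, which encodes another chitin-binding protein, averaged -0.43 (limma adjusted p = 0.05001) and did not pass, but was called at -0.63 without replicate 4, at -0.44 without replicate 6 and with arrays scaled or quantile normalized.

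A second run on 3L held CG5883 (1.54, 1.35 and 2.03), CG7252 (1.28, 1.11 and 1.81) and CG7248 (1.80, 1.57 and 1.79), again with chitin-binding domains. Between them lay CG17826, with -2.77, 0.99 and -3.29 on replicates 3, 4 and 6. Its mean of -1.69 ± 2.34 (SD, n = 3) did not pass (limma adjusted p = 0.114), and without replicate 4 it was -3.03 and did. CG17826 and CG7017 thus differed between replicate 4 and the other arrays by more than any member did. CG11570, at the far end of the run, was lower on every array, at -1.36, -1.79 and -2.24 (limma adjusted p = 1.20e-04). The probes of CG17826 and CG5883 had successive numbers, and their ratios had opposite signs on replicates 3 and 6.

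In the remaining runs of 3, the members on 2R were the closest: CG13323, CG13324 and CG13325 averaged 2.92, 2.71 and 2.72, within 0.21 of each other, against a spread of 0.66 on 2L and 0.65 on 3R. On 2R, Drl-2, a receptor gene between CG13324 and CG13325, averaged 0.16 and did not pass, but was called at 0.22 on the values as deposited. On 2L, CG33307 averaged 1.88, CG7916 2.32 and CG7968 2.54, and the 2 measured genes between them, CG8997 at 0.86 and CG7953 at 0.21, were called higher but lower than each of these members on every array. The calls of CG7953 were lost when any 1 array was left out. Over all runs 13 genes between members were tested, 8 were higher, 2 lower and 3 did not pass, against 13.4% higher and 23.6% lower over all features. A CG-numbered gene there with 1 or more on each array would be a member itself, so the rule caps what most of these 13 could show.

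**Figure D3:**
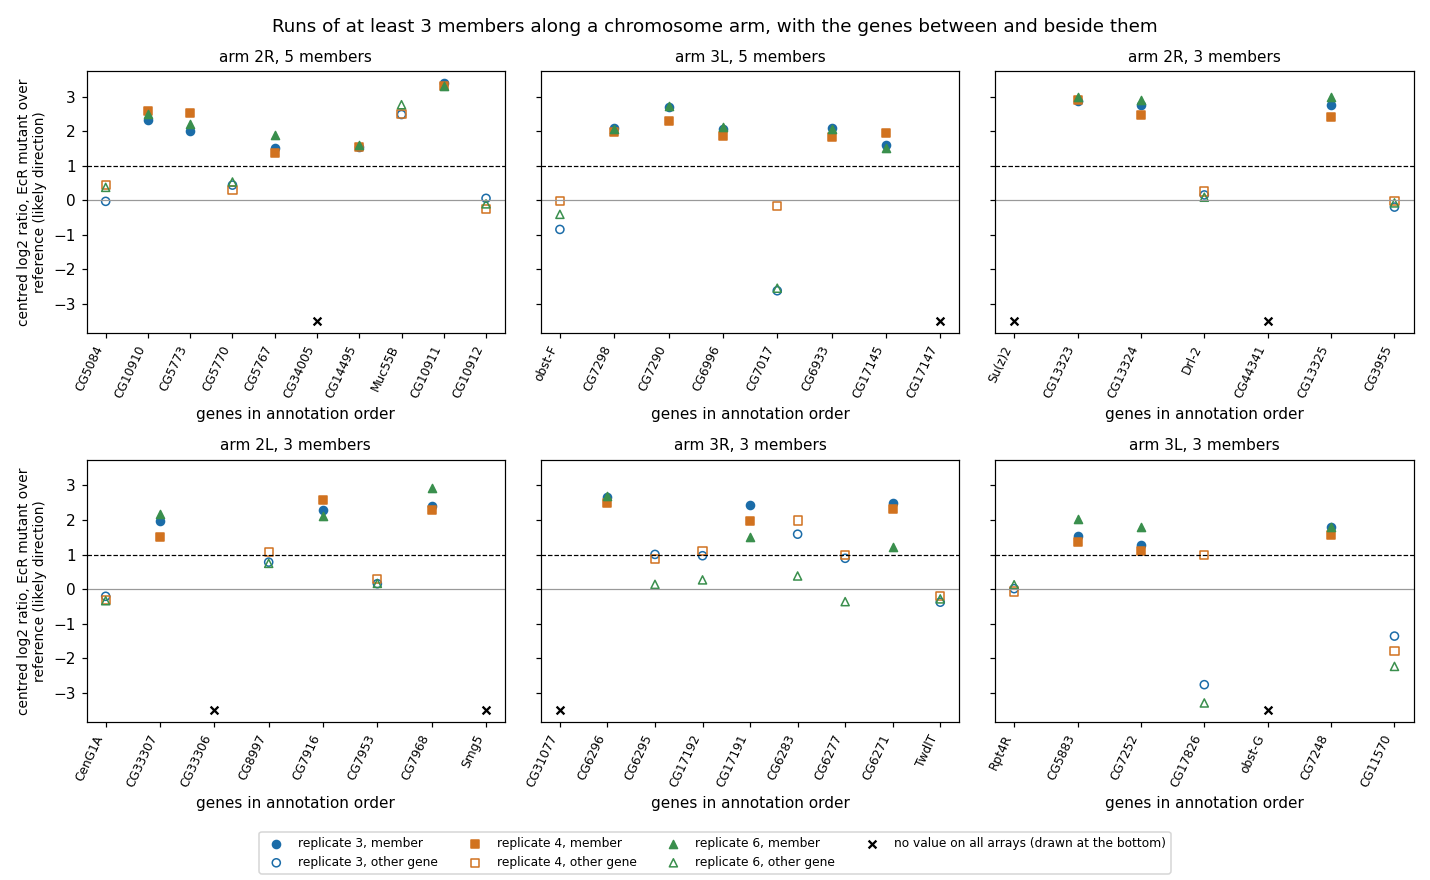
Centred log2 ratio per array (y axis) for the genes of the 6 runs of at least 3 members, in annotation order (x axis), with 1 gene beyond each end; filled points are members, open points other genes, and crosses genes without a value on all arrays. CG7017 and CG17826 lie below 0 between members on replicates 3 and 6, and the genes of the 3R run share a low value on replicate 6 except CG6296.

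The run on 3R was made of lipase genes. The gene table lists 7 genes with DmelL synonyms, for enzymes of the pancreatic lipase type that split dietary fat, and they follow each other without a gap. CG6296 had 2.66, 2.49 and 2.68, CG17191 had 2.42, 1.96 and 1.51, and CG6271 had 2.48, 2.32 and 1.21, and these 3 were members. CG6283 reached 1.59 and 1.98 on replicates 3 and 4 and 0.38 on replicate 6. CG17192 (0.97, 1.11 and 0.27), CG6295 (1.0, 0.87 and 0.14) and CG6277 (0.89, 0.98 and -0.36) had the same low array. In 6 of the 7 genes replicate 6 was thus the lowest, by at least 0.44, whereas replicate 6 was the lowest array for 10 of all 96 members. CG6296, the first gene of the row, did not share it. Of the 4 lipases that were no members, CG6283, CG17192 and CG6295 were called higher (limma adjusted p = 0.00785, 0.00661 and 0.0143) and CG6277 was not (0.147). Each of the 3 calls was lost without replicate 3, where the means were 1.18, 0.69 and 0.50, and that of CG6295 also without replicate 4. Without replicate 6 CG6277 was called, at 0.94.

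Other relatives of members could be found by their synonyms. Of 6 genes with DmNAT synonyms, for sodium-coupled amino acid transporters, CG1698 was the member (1.83, 1.66 and 2.03). NAAT1, a transporter of essential amino acids that has a given name and so could not be chosen, had 2.03, 1.48 and 2.51 (mean 2.01 ± 0.52, SD, n = 3; limma adjusted p = 1.40e-04). CG15279 at 0.46 and CG4476 at 0.31 were also higher, the second not without replicate 3, while CG8850 at 0.23 and List at 0.10 did not pass. CG8850 was called at 0.30 without replicate 6 and at 0.29 on the values as deposited. The other 4 genes lay below both CG1698 and NAAT1 on every array.

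**Figure D4:**
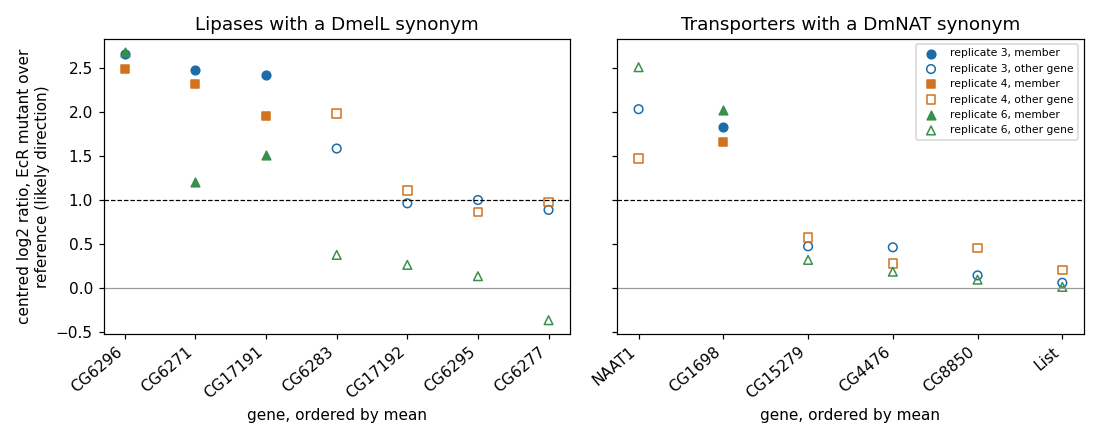
Centred log2 ratio per array (y axis) of the 7 lipase genes with a DmelL synonym and the 6 transporter genes with a DmNAT synonym (x axes, ordered by mean); filled points are members and open points other genes. Replicate 6 is the lowest array for every lipase but CG6296.

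Of 34 tested genes with Dro synonyms, for ecdysteroid kinase-like proteins, a family named for an insect enzyme that phosphorylates ecdysteroids, 11 were higher (32.4%) and 5 lower, against 13.4% and 23.6% over all features. The median was 0.09, and CG10550 at 2.16 and CG16898 at 2.00 (limma adjusted p = 0.00195) were the 2 highest. CG10550 is a member and so was higher by the rule, and without it 10 of 33 were higher (30.3%) and 5 lower. CG16898 missed the rule on replicate 4 alone. The lowest were CG11893 at -0.86 and CG6908 at -0.81, so the family did not move as a whole.

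Of 158 tested genes with SP or SPH synonyms, 56 were higher (35.4%) and 18 lower, against 13.4% higher and 23.6% lower over all features, with a median of 0.14 against 0.01. The 7 members among the 158 were higher by the rule. Without them 49 of 151 were higher (32.45%) and 18 lower, with a median of 0.12. Of the 56 among the 158 with a given name, which the rule could not take, 28 were higher (50%) and 4 lower, with a median of 0.33. They were led by Phae2, a serine protease gene, with 2.64, 2.82 and 3.49. The named digestive proteases are part of that count and were known to be high before it was made.

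Genes with a given name that lie next to a member were not chosen by their values. There were 38 of them with a value on all arrays, and 9 (23.7%) were higher and 17 (44.7%) lower by limma, against 13.4% and 23.6% of all features. With the values as deposited, which are not centred, 12 were higher and 15 lower, while over all features 3040 were higher and 2730 lower, against 1744 and 3080 with centring. Without replicate 3, 5 were higher and 9 lower. Both shares lay above those over all features, a difference that was not tested, and lower neighbours were more numerous than higher ones with and without centring. All features include CG-numbered genes and unnamed probes, and the shares over given-name genes alone are not given here.

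The highest neighbour was Muc55B. Ser6, a serine protease gene next to the member CG1304, which is itself of that family, had 1.61, 1.29 and 1.97 (limma adjusted p = 7.39e-05). Bhmt, which encodes a methyltransferase that turns homocysteine into methionine, had 1.08, 0.59 and 1.15 (limma adjusted p = 6.21e-04), next to CG10621, of the homocysteine methyltransferase family, at 1.28, 1.10 and 1.39. In these 3 places the neighbour and the member both were higher on every array.

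Cyp4aa1, a cytochrome P450 gene, at 0.59, yellow-g at 0.52 and gcm, a transcription factor of glia and blood cells, at 0.42 followed, each below 1 on every array. The call of yellow-g was lost without replicate 3. Among the lower neighbours, Atg7, which encodes the activating enzyme of autophagy, had -1.44, -1.42 and -1.72 (limma adjusted p = 1.67e-05) next to CG5335 at 1.13, 1.20 and 1.31. Snx1, a sorting nexin, had -0.91, -0.88 and -1.0 next to CG2772, Mmp2, a matrix metalloprotease, -0.73, -0.73 and -1.14 next to CG12926, and AP-2mu, an adaptor subunit of endocytosis, -0.94, -0.67 and -0.92 next to CG7054. Neighbouring genes therefore stood on opposite sides of the reference in these 4 places.

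**Figure D5:**
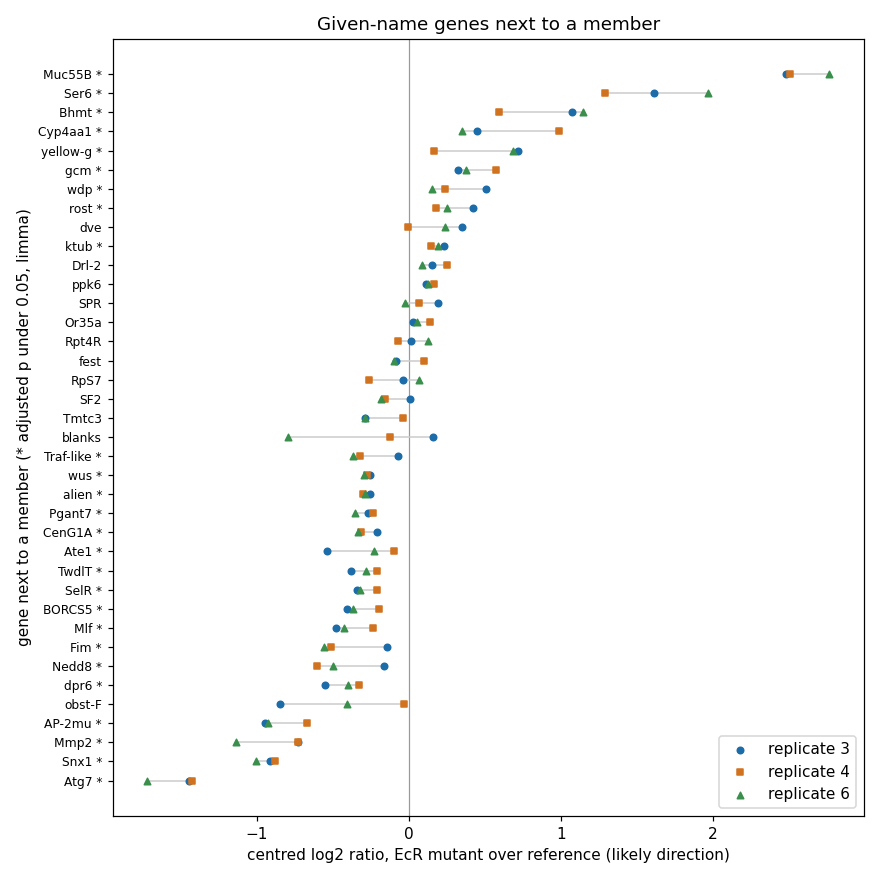
Centred log2 ratio per array (x axis) of the 38 given-name genes next to a member (y axis, highest at the top), with a grey line from the lowest to the highest array and an asterisk where limma gave an adjusted p under 0.05. Muc55B, Ser6 and Bhmt are highest and Atg7 is lowest.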

How the data were processed

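Per the labels, amplified RNA of EcR mutant midgut (635 nm) and of the wild-type reference pool (532 nm) shared each array. The authors deposited the log2 ratio of each probe; how they corrected background or filtered spots is not stated in the labels. Arrays were centred on their median over probes, and probes with the same gene symbol were averaged. Of the resulting features, 13027 were measured on all 3 arrays. The limma 3.58.1 functions lmFit and eBayes (R 4.3.3) tested each mean against 0 from both sides, Benjamini-Hochberg adjusted across the whole table, with calls at an adjusted p under 0.05. A single pooled control stands behind every ratio, and variation of the wild type is left out. On simulated data of the same size, 98.5% of changes of 0.5 and 100% of changes of 1 were recovered, with 8 false calls beside 200 true changes. The simulated noise was normal and independent, with the variances that eBayes had already moderated and no error shared by features or arrays. It therefore does not give the recovery in the measured data, where far more features were called.

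The members, protein families, synonym patterns and marker lists were chosen with earlier results of these data known. Named genes were the 20 highest members, those nearest the threshold, those with the widest range, runs, and the highest and lowest neighbours; genes named for their protein family were added after their values were seen. Gene order and synonyms came from the RefSeq gene table, which placed all 96 members. Protein and promoter sequences were not used here, so the planned count of protein matches was not made. The SP pattern also took in a few genes that are no proteases, such as Osi14 and Aplip1. The fat body list also held Larp and the Malpighian tubule list Capr, which are not particular to those tissues. Figures and counts used Python 3.11.15 with pandas 2.3.3, numpy 2.4.6 and matplotlib 3.10.9.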

Additional observations from a re-analysis of the deposited data

How the results depend on the processing

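The number of members, 96, was between 68 and 119 over the settings tried. It was 100 on the values as deposited and 97 with arrays scaled to the same spread, of which 96 and 93 were shared; CG5011, CG5819 and CG6424 were lost in the second. With 2 arrays deciding, it was 98 to 119, the highest without replicate 4. With the threshold at a 1.74-fold ratio on each array there were 112, and at 2.38-fold there were 68. The median of the members was between 1.70 and 1.91 when each replicate was left out. Over all features 4824 were called, 1744 higher and 3080 lower. Leaving out each replicate gave 2787 to 4614 calls, 792 to 1540 higher and 1995 to 3074 lower, lowest without replicate 3, and an adjusted p under 0.01 gave 3122 and 901 higher. On the values as deposited 3040 were higher. Given-name neighbours called were 5 to 9 higher and 9 to 17 lower without each replicate, again lowest without replicate 3, 5 higher and 11 lower at 0.01, and 16 higher and 29 lower of 83 when the next 2 genes on either side were taken. Over 151 single genes, which are all 96 members, the other genes in or beside a run and further genes named here, 1008 results kept their direction and side of the threshold (for members, moved by less than 1 SD), 21 lost and 18 gained a call, 6 values of 5 members moved by more than 1 SD, and 4 were reversed. They are of 2 genes that were not called. Rpt4R was at -0.0293 without replicate 6 against 0.0223 over all arrays, 0.0274 without replicate 3 and 0.0689 without replicate 4. CG8675, beside a run, was at -0.0578 without replicate 6, -0.0039 with scaled arrays and -0.0046 with quantile normalization against 0.0056 over all arrays, and at 0.0018 without replicate 3 and 0.0729 without replicate 4. The cause was not tested. No paired analysis was possible because all arrays are of 1 group. The count of protein matches was not run. Signal over background is unknown, so how far dim probes limit a ratio could not be given.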
